A study of Saccharomyces cerevisiae with 12 samples.

Results

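The comparison described here sets budding yeast of a strain labelled cyc8::KAN against its wild-type parent, gene by gene. It uses 6 of the 12 RNA-seq libraries of the series, 3 from a cyc8 strain and 3 from wild type (wt), and all 7095 nuclear gene rows among the 7150 rows of the count table. The labels give the cyc8 strain (YAFTCD4) as BY4741 with cyc8::KAN, and the wt strain is BY4741 itself; both are Mat a and carry his3del1, leu2del0, met15del0 and ura3del0. A second pair of strains is used only to look for the same direction of change elsewhere: cyc8 snf2 (YDB1.7, cyc8::URA3 and snf2::LEU2; 4 libraries) and snf2 (FY2083, snf2::LEU2; 2 libraries), which share MATa, his3del200, ura3del0, trp1-del63, lys2del0 and met15del0. All strains grew to log phase in rich medium with glucose (YPD) at 30 °C, and RNA was depleted of ribosomal RNA and read from both ends. Each genotype is 1 named strain, and the labels do not say whether the libraries of a strain were separate cultures. The p-values therefore rest on differences between libraries that may be only technical.

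Cyc8 (also called Ssn6) and Tup1 form a corepressor. The complex does not bind DNA; sequence-specific repressors such as Mig1, Nrg1, Rox1, Sko1, Crt1 and the mating-type repressor α2 bring it to promoters. Its best-known targets are genes of flocculation, hypoxia, sugar use, DNA damage and a-cell identity, and the question here is which functions outside these sets are raised, or lowered, in the strain labelled cyc8.

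Several facts about the libraries come before the results. The 6 libraries held 19940399 to 27230570 counts, so that 3 counts correspond to 0.11 to 0.15 counts per 1000000 (CPM). CYC8 itself was still counted in the mutant, at 63.3, 60.5 and 54.1 CPM in the cyc8 libraries, against 78.8, 82.5 and 69.9 CPM in the wt libraries (log2 fold change -0.38 ± 0.09 (SE); Benjamini-Hochberg adjusted p = 0.00304 in edgeR's quasi-likelihood fit). The groups did not overlap, but the transcript level does not identify the mutant, and the labels do not say which part of the gene was replaced. Below, cyc8 names the libraries as labelled. TUP1, the partner subunit, averaged 226 ± 16.7 CPM in cyc8 and 244 ± 3.3 CPM in wt (SD, n = 3 each; adjusted p = 0.185). The median log2 fold change of whole chromosomes lay between -0.17 and 0.06. Of the wt libraries, replicate 3 stood apart: among 4888 genes that averaged 10 CPM or more, 109 lay more than 2-fold from the mean of the other wt libraries, 74 of them below it. The same count was 4, 1 and 6 for cyc8 replicates 1, 2 and 3 and 20 and 24 for wt replicates 1 and 2. GSY1, a glycogen synthase, shows the pattern, with 207, 275 and 226 CPM in the cyc8 libraries, against 350.0, 356 and 108 CPM in the wt libraries.

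Many more genes were higher than lower in cyc8. A gene is called here when its adjusted p is below 0.05 and its change at least 2-fold. Of 6152 nuclear genes that passed the filter on low counts, 637 were higher in cyc8 (10.4%) and 214 lower (3.48%), with a median log2 fold change over all tested genes of -0.05. Without wt replicate 3, 604 genes were higher and 210 lower over all rows, where the full set gave 640 and 215. The libraries of the groups did not overlap for 634 of the 637 higher and 211 of the 214 lower genes, and for 54.7% of all tested genes. At least 4-fold changes were found for 294 higher and 70 lower genes. Many of the higher genes were near silent in wt: 148 averaged under 1 CPM there, and 6 had no wt count at all. A further 78 were above 100 CPM in wt already.

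Best-known targets were called more often than other genes, but most called genes lay outside them. The 9 lists of best-known targets (those of a-cells, osmotic stress, Crt1, sucrose and maltose, hexose transport, hypoxia under Rox1, PAU, DAN and TIR, and flocculation) held 83 tested genes, of which 65 were higher (78.3%), and 572 of the 6069 tested genes outside them were higher (9.42%). All higher genes together took 17.5%, 16.3% and 17.7% of nuclear counts in the cyc8 libraries, against 4.30%, 4.33% and 3.92% in the wt libraries. The 65 best-known genes among them took 6.90%, 6.49% and 6.98% in cyc8, against 0.626%, 0.578% and 0.654% in wt. Those outside the best-known lists took 10.6%, 9.84% and 10.7% in cyc8, against 3.67%, 3.75% and 3.26% in wt. The lower genes took 1.03%, 1.05% and 0.998% in cyc8, against 3.27%, 3.31% and 3.32% in wt. These genes, chosen for their difference, describe the size of the change and are no test of it.

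**Figure D1:**
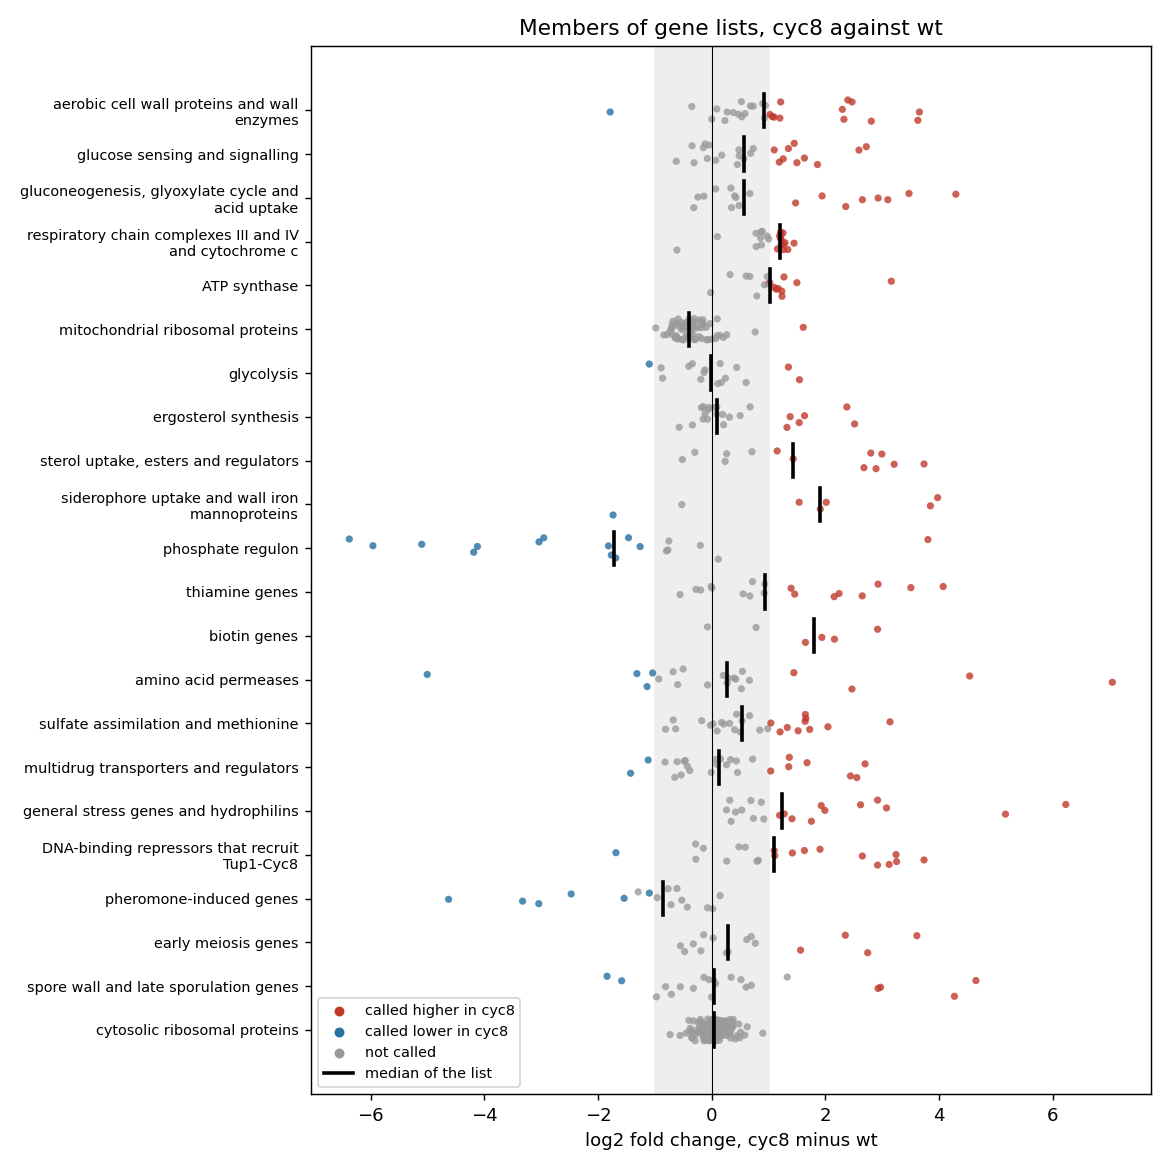
Log2 fold change (cyc8 minus wt) of every tested gene in 22 functional lists outside the best-known targets, with called genes in colour, other genes in grey and a bar at each list's median. Sterol uptake, respiratory chain, iron mannoprotein and general stress genes sit to the right of 0, the phosphate regulon and the pheromone-induced genes to the left.

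The plot of functional lists shows the range among them, and the lists are taken up below by function. Each list is described by how many of its tested members were higher or lower, to be read against the 10.4% and 3.48% over all nuclear genes, and by its median log2 fold change, to be read against -0.05. Genes were assigned to lists with earlier results of these data known.

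Several messages for wall proteins of aerobic growth were higher in cyc8. Of 28 genes for wall proteins and enzymes used in aerobic growth, 12 were higher and 1 lower, with a median of 0.91. CWP1, a major mannoprotein of the aerobic wall, had 2086, 1667 and 1399 CPM in the cyc8 libraries, against 104, 117 and 188 CPM in the wt libraries (log2 fold change 3.65 ± 0.29, adjusted p = 1.44e-06). The cyc8 libraries all lay far above wt, although 29.6% of the CWP1 gene model (XI, 259300 to 261945, R64) overlaps a neighbour's model on the same strand. TIP1, another wall mannoprotein, had 2408, 2032 and 1830 CPM in cyc8, against 359, 325 and 213 CPM in wt. The wall glucanase gene SCW10 averaged 1135 ± 166 CPM in cyc8 and 216 ± 18.3 CPM in wt (SD, n = 3 each). Surface proteases moved with them: YPS6 averaged 139.9 ± 4.43 CPM in cyc8 and 11.3 ± 4.09 CPM in wt, and YPS3 averaged 254 ± 37.9 CPM in cyc8 and 45.9 ± 5.8 CPM in wt. CCW12, a major wall mannoprotein, averaged 18102 ± 3722 CPM in cyc8 and 9508 ± 437 CPM in wt, a log2 fold change of 0.93 ± 0.14 (adjusted p = 8.24e-05) that stayed under the 2-fold limit; without cyc8 replicate 3 it passed. The exception was YGP1, a secreted glycoprotein made in starving cells, at 46.7, 28.8 and 34.3 CPM in cyc8, against 154, 153 and 72 CPM in wt.

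Some genes for sensing glucose, and for living without it, were higher in cyc8 although both strains grew in glucose medium. Of 25 genes of glucose sensing and signalling, 10 were higher, with a median of 0.57. ADR1, the activator of genes for ethanol and glycerol use, had 277, 294 and 313 CPM in the cyc8 libraries, against 55.1, 50.5 and 41.1 CPM in the wt libraries (log2 fold change 2.59 ± 0.10, adjusted p = 1.25e-10), and the groups did not overlap. HXK1, the hexokinase made when glucose is scarce, had 568, 575 and 548 CPM in cyc8, against 106, 101 and 49.5 CPM in wt (log2 fold change 2.72 ± 0.25, adjusted p = 4.58e-06). Its wt level was lowest in replicate 3, and 93.4% of its model overlaps another model on the same strand. The other glucose kinases followed with smaller changes: GLK1 averaged 1230 ± 117 CPM in cyc8 and 483 ± 168 CPM in wt, and EMI2, the gene of a related kinase, 535 ± 28.1 CPM in cyc8 and 196 ± 68 CPM in wt. RGT2, a glucose sensor of the plasma membrane, averaged 47.7 ± 3.55 CPM in cyc8 and 20 ± 2.55 CPM in wt. MTH1, which holds hexose transporter genes off until glucose is sensed, averaged 122 ± 8.49 CPM in cyc8 and 43.4 ± 15.4 CPM in wt.

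The HXK1 promoter is shown because it carries a word of the glucose repressor Mig1 and belongs to a gene outside the best-known lists. In this and the following promoters, a window of 300 bases that ends 150 bases before the coding start was read 5′ to 3′ on the gene's strand from the RefSeq R64 genome, and words were searched on both strands. The capitals mark 1 match to the Mig1 words (GCGGGG or CCGGGG or GTGGGG or CTGGGG), here on the opposite strand and 304 bases before the coding start (chrVI:255200-255499, minus strand). Other words searched also lie in this window without capitals: the stress element AGGGG, the Rox1 word ATTGTTC and the Upc2 word TCGTATA. A match is a description of the sequence, not a measured binding site.
HXK1: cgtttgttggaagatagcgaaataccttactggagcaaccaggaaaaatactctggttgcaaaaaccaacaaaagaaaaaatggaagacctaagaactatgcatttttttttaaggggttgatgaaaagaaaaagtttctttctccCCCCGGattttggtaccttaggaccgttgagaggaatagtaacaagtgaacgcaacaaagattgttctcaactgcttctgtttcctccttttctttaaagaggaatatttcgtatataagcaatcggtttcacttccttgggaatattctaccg

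Of 18 genes for gluconeogenesis and the import of acids, 8 were higher and 10 were not called, with a median of 0.58. JEN1, the lactate importer, had 71.3, 70.5 and 64.9 CPM in the cyc8 libraries, against 7.62, 6.23 and 4.76 CPM in the wt libraries (log2 fold change 3.47 ± 0.13, adjusted p = 7.47e-11). The groups lay far apart. CYB2, the mitochondrial lactate dehydrogenase that acts on what JEN1 imports, averaged 30.3 ± 5.38 CPM in cyc8 and 3.54 ± 1.2 CPM in wt. PCK1, which commits carbon to gluconeogenesis, averaged 44.3 ± 6.39 CPM in cyc8 and 5.84 ± 0.608 CPM in wt. ATO2, a transporter of the acetate family, averaged 35.9 ± 2.62 CPM in cyc8 and 5.73 ± 2.58 CPM in wt, and ADY2, the acetate permease, 5.22 ± 0.368 CPM in cyc8 and 1.01 ± 0.29 CPM in wt. FBP1, the phosphatase that opposes glycolysis, stayed low in both strains, at 2.42 ± 0.696 CPM in cyc8 and 0.873 ± 0.258 CPM in wt (adjusted p = 0.00178). The activator genes moved less: CAT8 averaged 26.7 ± 1.07 CPM in cyc8 and 11.7 ± 5.11 CPM in wt (under the 2-fold limit without wt replicate 3), and SIP4 2.01 ± 0.73 CPM in cyc8 and 0.554 ± 0.296 CPM in wt.

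The mannitol dehydrogenase genes were among the largest changes of the genome outside the best-known targets. Of 7 tested genes of polyol use, however, 2 were higher and 5 not called, with a median of 0.22. DSF1 (V, 19589 to 21097) had 353, 336 and 299 CPM in cyc8, against 1.6, 1.85 and 0.876 CPM in wt (log2 fold change 7.84 ± 0.23, adjusted p = 2.07e-11). MAN2 (XIV, 774660 to 776363) had 509, 419.9 and 425 CPM in cyc8, against 2.81, 2.95 and 2.92 CPM in wt (log2 fold change 7.28 ± 0.12, adjusted p = 3.68e-14). The genes are near copies, with 58.5% and 56.5% of their 50-base words found elsewhere in the genome, so the split of reads between them is uncertain. Of 9 genes of glycerol metabolism 3 were higher: GUP2, a membrane protein gene, averaged 71.7 ± 8.06 CPM in cyc8 and 6.42 ± 0.398 CPM in wt, GPP1, a glycerol phosphatase, 3017 ± 231 CPM in cyc8 and 1355 ± 106 CPM in wt, and DAK2, a dihydroxyacetone kinase, 17.7 ± 6.25 CPM in cyc8 and 0.293 ± 0.134 CPM in wt. Of 18 alcohol and aldehyde dehydrogenase and decarboxylase genes 6 were higher and 2 lower. PDC5, a minor pyruvate decarboxylase, had 303, 133 and 119.6 CPM in cyc8, against 20.1, 17 and 17.1 CPM in wt. Cyc8 replicate 1 was the highest of its group, and all 3 lay above wt.

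Many genes of the respiratory chain were higher, and few of the mitochondrial ribosome. Of 23 genes of complexes III and IV, the external dehydrogenases and cytochrome c, 13 were higher and 10 not called, with a median of 1.19, and of 17 genes of ATP synthase 9 were higher and 8 not called, with a median of 1.02. At a 1.5-fold threshold 1 gene of the first list was called lower. QCR2, a core subunit of complex III, had 231, 211 and 245 CPM in cyc8, against 86.6, 115 and 70.8 CPM in wt (log2 fold change 1.34 ± 0.14, adjusted p = 4.32e-06). COX9, of complex IV, had 324, 246 and 267 CPM in cyc8, against 109, 105 and 91.8 CPM in wt (log2 fold change 1.45 ± 0.10, adjusted p = 4.26e-08). In both, the lowest cyc8 library lay above the highest wt library. INH1 (IV, 135012 to 135745), whose product blocks ATP hydrolysis by the synthase, changed far more than the subunits, with 255, 179 and 179.6 CPM in cyc8, against 23.8, 25.9 and 19 CPM in wt (log2 fold change 3.16 ± 0.15, adjusted p = 1.57e-09). Of 70 mitochondrial ribosomal protein genes, 1 was higher, with a median of -0.39, and 1 was lower without cyc8 replicate 1 or wt replicate 2. Small falls were common among them: 47 were lower and 3 higher at an unadjusted p below 0.05. At the 1.5-fold threshold 19 were called lower and 2 higher. Words of the respiratory activator Hap (CCAAT) stood in 73.9% of the promoters of complexes III and IV and in 45.4% of all 5704 promoters.

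Around the respiratory chain the picture was uneven. Of 22 genes of the tricarboxylic acid cycle and its retrograde branch 5 were higher and 2 lower with a median of 0.15; the higher count was 3 without cyc8 replicate 1 and 2 without wt replicate 3. ACO1, aconitase, averaged 1342 ± 53.5 CPM in cyc8 and 582 ± 179 CPM in wt. CIT2, the peroxisomal citrate synthase that marks the retrograde response, had 18.1, 19.8 and 19.4 CPM in cyc8, against 168, 216 and 125 CPM in wt (log2 fold change -3.15 ± 0.16, adjusted p = 5.98e-09). All cyc8 values of CIT2 lay far below wt. Of 23 mitochondrial carriers 6 were higher and 1 lower, with a median of 0.12 that changed sign under upper-quartile scaling. They included ODC1, the oxodicarboxylate carrier, at 66.3 ± 5.92 CPM in cyc8 and 9.9 ± 1.21 CPM in wt, and CRC1, the carnitine carrier, at 12.5 ± 0.921 CPM in cyc8 and 2.18 ± 0.708 CPM in wt. MPC3, the pyruvate carrier subunit of respiring cells, had 58.4, 46.3 and 57.6 CPM in cyc8, against 13.8, 14.6 and 4.8 CPM in wt.

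Of 20 trehalose and glycogen genes 3 were higher and 1 lower, near the shares over all genes. GSY1, given above, was not called (log2 fold change -0.20 ± 0.36, adjusted p = 0.677). GAC1, which brings protein phosphatase to glycogen synthase, had 602, 638 and 716 CPM in cyc8, against 70.6, 55.5 and 17.1 CPM in wt (log2 fold change 3.77 ± 0.42, adjusted p = 2.61e-05). GDB1, the debranching enzyme, averaged 169.6 ± 25.1 CPM in cyc8 and 52.2 ± 19.6 CPM in wt. Wt replicate 3 was the lowest library for both. SGA1 (IX, 178004 to 179653), a glucoamylase known from sporulating cells, is not in that list and was named by the size of its change. It had 106, 97.6 and 85.5 CPM in cyc8, against 1.12, 1.28 and 0.793 CPM in wt (log2 fold change 6.50 ± 0.16, adjusted p = 1.06e-12), a 90.2-fold difference with no overlap. Of 16 glycolysis genes 2 were higher and 1 lower. The lower one was ENO2, enolase, at 4102, 4102 and 2824 CPM in cyc8, against 7955, 7210 and 8473 CPM in wt (adjusted p = 9.53e-06); it was not called without cyc8 replicate 3, and 80.5% of its model overlaps another.

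The SGA1 promoter is shown because it holds 5 copies of the stress element word AGGGG, between 429 and 185 bases before the coding start, and 1 copy of the Nrg1 word GGACCCT at 163 bases (chrIX:177554-177853, plus strand). The capitals mark these words.
SGA1: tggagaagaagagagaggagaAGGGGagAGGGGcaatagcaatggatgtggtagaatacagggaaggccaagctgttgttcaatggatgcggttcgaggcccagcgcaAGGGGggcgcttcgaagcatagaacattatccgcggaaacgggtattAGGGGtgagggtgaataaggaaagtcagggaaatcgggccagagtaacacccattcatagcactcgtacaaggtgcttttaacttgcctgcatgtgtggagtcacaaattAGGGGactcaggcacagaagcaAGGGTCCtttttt

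Many genes of sterol import and its regulators were higher; aerobic yeast normally makes sterol and does not import it. Of 13 genes of sterol uptake, esterification and control, 8 were higher, with a median of 1.43. SUT1, a regulator of sterol uptake (VII, 197430 to 199211), had 230.4, 216 and 219 CPM in cyc8, against 16.6, 15.2 and 18.1 CPM in wt (log2 fold change 3.73 ± 0.13, adjusted p = 3.09e-11). UPC2, which activates sterol genes when sterol falls, had 175, 176 and 201 CPM in cyc8, against 27.6, 25.9 and 20.9 CPM in wt (log2 fold change 2.89 ± 0.11, adjusted p = 8.66e-11). Neither gene's groups overlapped. The importers followed: AUS1 averaged 398 ± 28.2 CPM in cyc8 and 62.2 ± 3.09 CPM in wt, and PDR11 98.4 ± 8.84 CPM in cyc8 and 10.6 ± 1.47 CPM in wt. PRY1, a secreted sterol-binding protein, averaged 971 ± 111 CPM in cyc8 and 122 ± 35.2 CPM in wt.

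Within sterol synthesis the rise was limited to a subset, 6 of 23 genes, with a median of 0.09 that changed sign under upper-quartile scaling. ERG25, a C-4 methyl oxidase (VII, 610473 to 611838), had 2028, 1675 and 1799 CPM in cyc8, against 312, 302 and 349.9 CPM in wt (log2 fold change 2.51 ± 0.10, adjusted p = 1.43e-10). ERG3, a desaturase, averaged 1507 ± 140.0 CPM in cyc8 and 290.2 ± 31.7 CPM in wt. ERG11, a demethylase, averaged 2326 ± 59.5 CPM in cyc8 and 750.3 ± 50.9 CPM in wt. ERG1, squalene epoxidase, averaged 1569 ± 112 CPM in cyc8 and 539.9 ± 4.41 CPM in wt. These 4 products are known to use molecular oxygen. The Upc2 word TCGTATA stood in 26.1% of the sterol synthesis promoters and in 4.38% of all promoters. It stood in 7.69% of the promoters of sterol uptake, esterification and control (1 of 13). Of 21 sphingolipid genes 4 were higher, among them SUR2, the hydroxylase that makes phytosphingosine, at 625 ± 43.8 CPM in cyc8 and 140.2 ± 21.4 CPM in wt, and RSB1, an exporter of long-chain bases, at 216 ± 20 CPM in cyc8 and 26.3 ± 2.16 CPM in wt. CHO2, an enzyme of phosphatidylcholine synthesis, was lower, at 125 ± 15.7 CPM in cyc8 and 359 ± 29.5 CPM in wt.

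Iron uptake genes changed in both directions. Of 7 genes of siderophore uptake and iron-binding wall mannoproteins 5 were higher and 1 lower, with a median of 1.91. FIT3, a wall mannoprotein that retains siderophores (XV, 1060241 to 1062089), had 1025, 2024 and 1226 CPM in cyc8, against 95.8, 82.5 and 93.7 CPM in wt (log2 fold change 3.97 ± 0.31, adjusted p = 1.08e-06). FIT2, of the same kind, had 653, 1626 and 784 CPM in cyc8, against 72.4, 50.1 and 90.2 CPM in wt. Cyc8 replicate 2 was the highest for both, and no cyc8 library came near wt. ENB1, the importer of enterobactin, went the other way and averaged 42 ± 4.65 CPM in cyc8 and 140.1 ± 25.8 CPM in wt (log2 fold change -1.74 ± 0.13, adjusted p = 9.13e-08).

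Of 20 genes of reductive iron uptake and other targets of the iron activator Aft1, 6 were higher and 1 lower, while the median was -0.36. FRE4, a ferric reductase (XIV, 739951 to 742110), had 402, 431 and 332 CPM in cyc8, against 6.05, 3.71 and 7.51 CPM in wt (log2 fold change 6.07 ± 0.67, adjusted p = 2.45e-05). The high-affinity pair changed less: FTR1, the permease, averaged 486 ± 95.5 CPM in cyc8 and 165 ± 50.1 CPM in wt, and FET3, the oxidase, had 1456, 1758 and 1184 CPM in cyc8, against 818, 493 and 633 CPM in wt (adjusted p = 0.028), a call lost without cyc8 replicate 1 or 2 or without wt replicate 2 or 3. FET4, the low-affinity transporter, averaged 401 ± 6.46 CPM in cyc8 and 108 ± 10.9 CPM in wt. TIS11, an Aft1 target whose product removes messages of iron-using proteins, was lower, at 8.17 ± 1.85 CPM in cyc8 and 19.7 ± 6.28 CPM in wt (adjusted p = 0.00712).

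The Aft1 word GCACCC stood in the promoters of all 7 siderophore and mannoprotein genes and in 5.28% of all promoters; in another window, described with the other words below, it stood in 2 of the 7 (28.6%) and in 4.40% of all. The FRE4 promoter is shown because it carries this word, 436 bases before the coding start, together with the Nrg1 word GGACCCT at 381 bases (chrXIV:739501-739800, plus strand). The capitals mark both, and the Rox1 word ATTGTTC stands unmarked on the opposite strand.
FRE4: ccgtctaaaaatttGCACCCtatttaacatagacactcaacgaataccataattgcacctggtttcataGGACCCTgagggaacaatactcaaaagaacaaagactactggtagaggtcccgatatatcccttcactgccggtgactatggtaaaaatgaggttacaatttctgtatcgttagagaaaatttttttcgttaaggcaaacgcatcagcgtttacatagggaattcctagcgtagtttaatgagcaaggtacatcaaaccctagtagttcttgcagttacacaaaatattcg

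Most genes of the phosphate regulon were lower. Of its 18 genes 12 were lower and 1 higher, with a median of -1.73. PHM6, a gene of unknown function that is induced by phosphate starvation (IV, 1021667 to 1022436), had 0.343, 0.386 and 0.276 CPM in cyc8, against 24.8, 23.2 and 37.2 CPM in wt (log2 fold change -6.38 ± 0.28, adjusted p = 3.57e-10). PHO84, the high-affinity phosphate transporter, had 118, 54.9 and 31.3 CPM in cyc8, against 1175, 1104 and 1426 CPM in wt (log2 fold change -4.19 ± 0.41, adjusted p = 9.58e-06). SPL2, which restrains low-affinity phosphate uptake, had 3.26, 3.18 and 1.29 CPM in cyc8, against 91.5, 83.4 and 89.2 CPM in wt. The cyc8 libraries of these 3 genes spread more among themselves for PHO84 and SPL2 than for PHM6, and none reached a wt value.

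Genes of polyphosphate synthesis fell with those of phosphate uptake. VTC3 had 61, 65.6 and 59.1 CPM in cyc8, against 468, 485 and 488 CPM in wt (log2 fold change -2.96 ± 0.07, adjusted p = 3.49e-13). VTC4, the catalytic subunit of the same complex, averaged 121 ± 8.97 CPM in cyc8 and 428 ± 5.28 CPM in wt, and PHO81, the inhibitor of the Pho80-Pho85 kinase, 38.8 ± 1.72 CPM in cyc8 and 125 ± 9.31 CPM in wt. PHO5, the secreted acid phosphatase, averaged 4.44 ± 2.26 CPM in cyc8 and 75.8 ± 20.4 CPM in wt; 70.2% of its model overlaps another, and the related PHO11 and PHO12 share 88.3% and 87.2% of their words with other places. The exception was PHO89, the sodium-coupled phosphate transporter (II, 796326 to 798581), at 717, 567 and 435 CPM in cyc8, against 43.7, 40.2 and 39.3 CPM in wt (log2 fold change 3.80 ± 0.19, adjusted p = 1.01e-08).

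The PHM6 promoter is shown as the member with the largest fall. The capitals mark its 1 match to the Pho4 word CACGTG, 279 bases before the coding start (chrIV:1022472-1022771, minus strand). That word stood in 72.2% of phosphate regulon promoters and in 4.70% of all promoters, and also in 66.7% of the promoters of sulfate assimilation and methionine genes, where none of the called genes was lower.
PHM6: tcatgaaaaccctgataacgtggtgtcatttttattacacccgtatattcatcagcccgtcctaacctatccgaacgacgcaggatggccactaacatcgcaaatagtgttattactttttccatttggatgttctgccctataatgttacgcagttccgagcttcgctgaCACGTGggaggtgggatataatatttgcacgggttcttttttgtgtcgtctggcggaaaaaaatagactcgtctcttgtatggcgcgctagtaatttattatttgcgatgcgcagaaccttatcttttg

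Many genes for making or importing thiamine and biotin were higher. Of 18 thiamine genes 8 were higher, with a median of 0.93, and of 6 biotin genes 4 were higher, with a median of 1.79. THI7, the thiamine importer (XII, 612075 to 614371), had 549.6, 486 and 524 CPM in cyc8, against 44.1, 43.9 and 49.6 CPM in wt (log2 fold change 3.50 ± 0.08, adjusted p = 3.35e-13). THI4, which makes the thiazole ring, averaged 27.9 ± 7.21 CPM in cyc8 and 1.65 ± 0.384 CPM in wt. THI5 is 1 of several near-identical genes, with 85.0% of its words shared, so its own level is uncertain. The biotin transporter gene of the plasma membrane, VHT1, did not reach the 2-fold limit (51.8 ± 3.43 CPM in cyc8 and 30.1 ± 4.87 CPM in wt), whereas genes of synthesis and of precursor import did: BIO2, biotin synthase, averaged 71.9 ± 4.4 CPM in cyc8 and 22.9 ± 2.45 CPM in wt, and BIO5, an importer of biotin precursors, 5.89 ± 1.6 CPM in cyc8 and 0.768 ± 0.312 CPM in wt. Of 10 vitamin B6 genes 4 were higher, but 2 without cyc8 replicate 1, without wt replicate 2 or without wt replicate 3.

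Amino acid permease genes changed in both directions. Of 21 tested, 4 were higher, 4 lower and 13 not called. PUT4, the proline permease (XV, 986720 to 988797), had 201, 177 and 152 CPM in cyc8, against 1.44, 1.14 and 1.38 CPM in wt (log2 fold change 7.05 ± 0.15, adjusted p = 2.09e-13), a 134-fold difference. GAP1, the general permease of poor nitrogen sources (XI, 514960 to 517021), had 314, 319 and 318 CPM in cyc8, against 13.3, 14.8 and 12.9 CPM in wt (log2 fold change 4.54 ± 0.20, adjusted p = 2.26e-09). DIP5, the permease of aspartate and glutamate (XVI, 40917 to 43190), had 3.89, 6.27 and 5.16 CPM in cyc8, against 161, 205 and 132 CPM in wt (log2 fold change -5.01 ± 0.21, adjusted p = 1.13e-09). For all 3 the groups lay far apart, 2 of them upward and DIP5 downward. ALP1, of the basic amino acid group, averaged 13.8 ± 1.12 CPM in cyc8 and 2.5 ± 0.328 CPM in wt, and MMP1, the importer of S-methylmethionine, 49.7 ± 1.75 CPM in cyc8 and 18.2 ± 6.01 CPM in wt. Lower were also MUP3, a low-affinity methionine permease (22.3 ± 1.71 CPM in cyc8 and 55.4 ± 10.9 CPM in wt), TAT2, the tryptophan permease (40.4 ± 6.85 CPM in cyc8 and 83 ± 10.1 CPM in wt; under the 2-fold limit without cyc8 replicate 2 or 3 or wt replicate 3), and AGP3 (3.42 ± 0.192 CPM in cyc8 and 7.55 ± 0.748 CPM in wt).

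The PUT4 promoter is shown because a Mig1 word, 349 bases before the coding start, lies between copies of the stress element word at 394 and 329 bases (chrXV:988933-989232, minus strand). The capitals mark all 3, the stress element words being on the opposite strand.
PUT4: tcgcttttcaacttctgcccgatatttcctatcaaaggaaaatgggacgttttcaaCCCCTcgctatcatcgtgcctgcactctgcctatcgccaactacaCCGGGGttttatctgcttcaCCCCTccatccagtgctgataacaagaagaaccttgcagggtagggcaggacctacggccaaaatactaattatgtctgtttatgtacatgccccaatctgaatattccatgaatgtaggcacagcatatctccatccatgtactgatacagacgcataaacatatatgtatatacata

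The wider set of genes under nitrogen catabolite repression did not follow PUT4 and GAP1, which were listed with the permeases and not in this set. Log2 fold changes in the set ran from -4.10 to 1.41. Of 29 tested, 4 were higher and 3 lower (5 lower without wt replicate 3). The median of 0.04 changed sign under upper-quartile scaling. The word of their GATA factors, GATAAG, was not counted for this set by itself. Among all higher genes outside the best-known lists it stood in 15.0% of promoters, against 14.0% of all promoters. PTR2, the peptide importer, averaged 1219 ± 56.2 CPM in cyc8 and 458 ± 124 CPM in wt. Of 27 sulfate assimilation and methionine genes 10 were higher and 17 not called, with a median of 0.53; at a 1.5-fold threshold 3 were called lower. SUL1, a sulfate importer, had 7.27, 3.65 and 3.68 CPM in cyc8, against 0.561, 0.38 and 0.668 CPM in wt (log2 fold change 3.14 ± 0.34, adjusted p = 5.03e-06). MET3, ATP sulfurylase, had 86.3, 49.4 and 51.1 CPM in cyc8, against 19.6, 20.4 and 16.5 CPM in wt. Cyc8 replicate 1 was the highest in both genes, and the groups did not overlap. Met31 and Met32 words (TGTGGC) stood in 55.6% of the sulfate and methionine promoters and in 9.55% of all promoters.

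In several biosynthetic branches some genes fell. Of 16 lysine and branched-chain genes 4 were lower and 1 higher, with a median of -0.61. BAT2, the cytosolic branched-chain transaminase, averaged 52.7 ± 6.91 CPM in cyc8 and 194 ± 10.5 CPM in wt, and LEU1, of leucine synthesis, 302 ± 10.5 CPM in cyc8 and 870.2 ± 90.1 CPM in wt. Of 14 serine, glycine and one-carbon genes 3 were lower. GCV1, of the glycine cleavage complex, had 28.2, 27.6 and 28.2 CPM in cyc8, against 80.8, 119.7 and 52.2 CPM in wt (log2 fold change -1.59 ± 0.23, adjusted p = 1.49e-04). The wt libraries differed more among themselves than the cyc8 libraries, with no overlap between the strains. IMD2, an IMP dehydrogenase of guanine nucleotide synthesis, had 11.8, 10.2 and 11.2 CPM in cyc8, against 131, 115 and 104 CPM in wt, with 29.2% of its words shared with related genes. Of 17 purine genes 2 were lower; without wt replicate 3, 4 were lower and 1 higher.

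Among the largest falls were 2 genes of aromatic amino acid catabolism, named by the size of their change and not from a list. ARO10, the decarboxylase of the Ehrlich pathway (IV, 1234110 to 1236269), had 1.14, 1.03 and 1.2 CPM in cyc8, against 27.2, 39 and 28.1 CPM in wt (log2 fold change -4.80 ± 0.20, adjusted p = 1.70e-10). ARO9, the transaminase before it (VIII, 375398 to 377395), had 5.49, 6.78 and 6.81 CPM in cyc8, against 47.6, 71.1 and 58.6 CPM in wt (log2 fold change -3.21 ± 0.19, adjusted p = 1.01e-08). The groups did not overlap for either. ARO80, their activator, averaged 15.3 ± 0.353 CPM in cyc8 and 17.1 ± 2.53 CPM in wt (adjusted p = 0.380).

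Many genes of the general stress response were higher in cyc8. Of 20 such genes 11 were higher, with a median of 1.23. HSP12, a membrane-protecting hydrophilin (VI, 106830 to 107790), had 1748, 1659 and 1618 CPM in cyc8, against 25.6, 15.2 and 26.1 CPM in wt (log2 fold change 6.23 ± 0.32, adjusted p = 2.78e-08). MSN4, a stress activator, had 263, 230.3 and 274 CPM in cyc8, against 70, 89.9 and 33.6 CPM in wt (log2 fold change 1.99 ± 0.26, adjusted p = 9.81e-05), while MSN2, its paralogue, averaged 66.9 ± 3.53 CPM in cyc8 and 55.9 ± 5.4 CPM in wt (log2 fold change 0.26 ± 0.09). The MSN4 groups stood clearly apart, with wt replicate 3 lowest. CTT1, cytosolic catalase, averaged 123 ± 13.7 CPM in cyc8 and 46.2 ± 24.7 CPM in wt (adjusted p = 0.00576). The stress element AGGGG stood in 75% of the promoters of the list (15 of 20) and in 23.7% of all promoters.

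Heat shock genes did not move as a class. Of 25, 4 were higher and 2 lower (1 lower without cyc8 replicate 1, cyc8 replicate 2, wt replicate 1 or wt replicate 3), with a median of -0.04. HSP26, a small chaperone (II, 381848 to 382838), had 2035, 1668 and 1533 CPM in cyc8, against 91, 46.9 and 69.7 CPM in wt (log2 fold change 4.65 ± 0.29, adjusted p = 1.60e-07). SSA4, a heat-inducible Hsp70, was lower, at 9.44, 11.4 and 12.8 CPM in cyc8, against 50.6, 23 and 23.4 CPM in wt (adjusted p = 5.81e-04). The directions were thus opposite within the class.

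Among 24 oxidative stress genes 7 were higher and 2 lower. RCK1, a kinase linked to oxidative stress and meiosis (VII, 206645 to 208696), had 760.2, 879 and 750.5 CPM in cyc8, against 3.33, 3.09 and 1.29 CPM in wt (log2 fold change 8.28 ± 0.29, adjusted p = 4.68e-10), a 310-fold difference. OYE3, an NADPH oxidoreductase, averaged 52.1 ± 2.09 CPM in cyc8 and 2.98 ± 0.543 CPM in wt, and PRX1, the mitochondrial peroxiredoxin, 230.1 ± 13.3 CPM in cyc8 and 52.7 ± 3.03 CPM in wt. GPX2, a glutathione peroxidase, was lower, at 9.9, 9.02 and 9.34 CPM in cyc8, against 54.3, 50.9 and 85.7 CPM in wt (log2 fold change -2.76 ± 0.25, adjusted p = 2.71e-06). Of 26 multidrug transporters and regulators 7 were higher and 2 lower (1 lower without wt replicate 2). PDR15, an ABC transporter of the stress response, averaged 445 ± 20.2 CPM in cyc8 and 75.9 ± 10 CPM in wt, and its relative PDR5, 397 ± 24.1 CPM in cyc8 and 1069 ± 265 CPM in wt. TPO2, a polyamine exporter with 34.2% of its words shared, averaged 688 ± 34.4 CPM in cyc8 and 106 ± 27.2 CPM in wt.

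**Figure D2:**
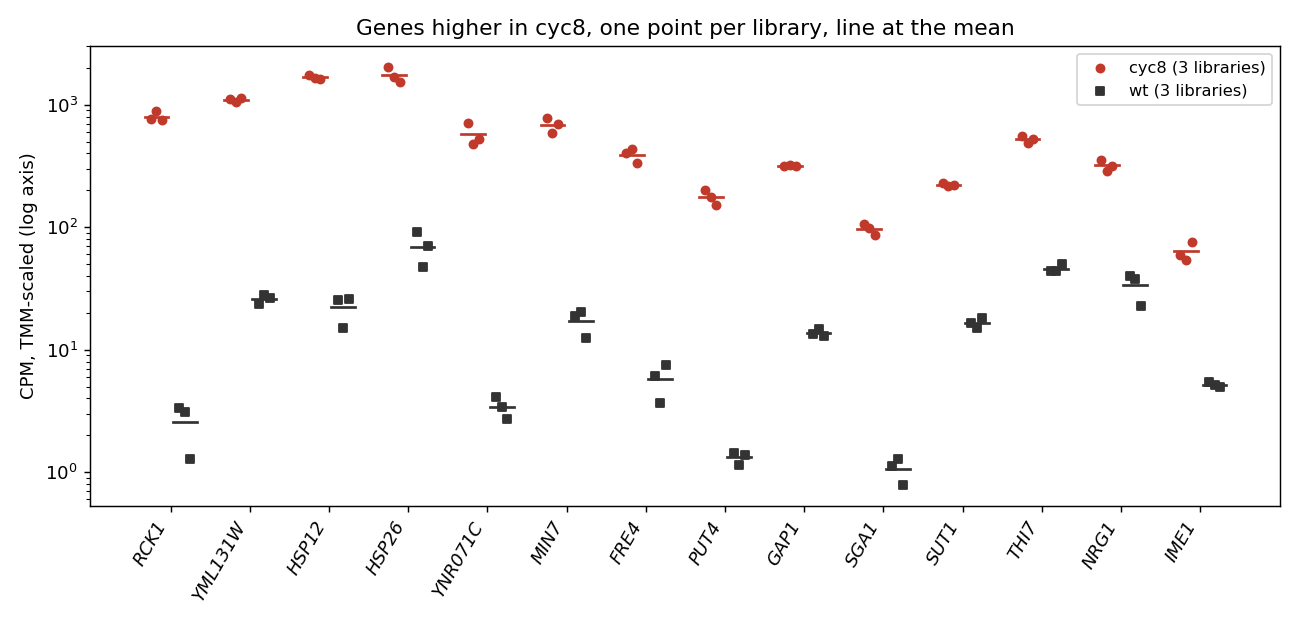
CPM of 14 raised genes outside the best-known targets in each library on a log axis, with cyc8 libraries plotted left of wt libraries and a line at each group's mean. RCK1, with 750.5 to 879 CPM in cyc8 and 1.29 to 3.33 CPM in wt, has the widest gap, and in every gene plotted the groups are separate.

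The plot of raised genes by library shows that separation for genes drawn from all the functions above. It also shows wt replicate 3 as the lowest wt library for RCK1, MIN7 and NRG1.

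Genes for the repressors that bring Cyc8 to DNA were often higher themselves. Of 20 genes for such DNA-binding repressors 11 were higher and 1 lower, with a median of 1.10. NRG1, a repressor of glucose-repressed genes (IV, 542559 to 543573), had 356, 286 and 318 CPM in cyc8, against 40.1, 37.8 and 22.8 CPM in wt (log2 fold change 3.25 ± 0.18, adjusted p = 1.48e-08). YAP6, a basic leucine zipper factor, had 34.9, 33.1 and 34.9 CPM in cyc8, against 4.89, 3.52 and 2.42 CPM in wt (log2 fold change 3.24 ± 0.17, adjusted p = 2.25e-09). CIN5, its relative, had 116, 203 and 177 CPM in cyc8, against 24.7, 24.4 and 8.1 CPM in wt (log2 fold change 3.12 ± 0.36, adjusted p = 3.77e-05). In none of the 3 genes did a cyc8 library reach down to the wt range. NRG2 averaged 179 ± 13.8 CPM in cyc8 and 28.6 ± 5.77 CPM in wt, and PHD1, a regulator of filamentous growth, 205 ± 4.82 CPM in cyc8 and 54.7 ± 7.42 CPM in wt. ROX1, the repressor of hypoxic genes, averaged 85.5 ± 6.6 CPM in cyc8 and 32 ± 1.63 CPM in wt, and the glucose repressor gene MIG2 64.7 ± 7.91 CPM in cyc8 and 20.8 ± 11.1 CPM in wt. The exception was HMS2, at 14.3 ± 0.791 CPM in cyc8 and 46.1 ± 4.86 CPM in wt. Of 14 corepressor partners, such as histone deacetylases, 1 was called, HOS1, at 3.67 ± 0.591 CPM in cyc8 and 8.87 ± 0.424 CPM in wt.

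Several meiosis genes were higher in these haploid cells. Of 15 early meiosis genes tested 4 were higher, with a median of 0.29. IME1, the master regulator of meiotic entry (X, 604397 to 605848), had 59.7, 54.4 and 76 CPM in cyc8, against 5.49, 5.14 and 4.93 CPM in wt (log2 fold change 3.61 ± 0.14, adjusted p = 1.22e-10). RIM4, an RNA-binding protein of meiosis, had 25.6, 27.7 and 28.2 CPM in cyc8, against 5.17, 4.14 and 2.84 CPM in wt (log2 fold change 2.74 ± 0.17, adjusted p = 1.82e-08). REC8, the meiotic cohesin, stayed low, at 3.22 ± 0.721 CPM in cyc8 and 0.633 ± 0.07 CPM in wt. Of 21 spore wall and late sporulation genes 4 were higher and 2 lower. DIT1, of the dityrosine layer, had 101, 47.1 and 59.1 CPM in cyc8, against 3.09, 2.43 and 2.67 CPM in wt, and SPO20, a membrane fusion protein of spores, averaged 16.2 ± 1.64 CPM in cyc8 and 0.85 ± 0.375 CPM in wt. The cyc8 libraries of both genes lay well above wt.

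Several genes induced by mating pheromone were lower. Of 16 pheromone-induced genes tested 6 were lower, with a median of -0.86. FUS1, of cell fusion (III, 71658 to 73446), had 1.03, 1.2 and 1.1 CPM in cyc8, against 11.5, 8.51 and 13.8 CPM in wt (log2 fold change -3.33 ± 0.29, adjusted p = 5.71e-07). SST2, which damps the pheromone signal (XII, 1039083 to 1041538), had 8.98, 7.13 and 8.93 CPM in cyc8, against 64.8, 61.2 and 79.9 CPM in wt (log2 fold change -3.04 ± 0.16, adjusted p = 2.25e-09). Both genes were low in every cyc8 library. AGA1, an agglutinin subunit, averaged 7.45 ± 1.17 CPM in cyc8 and 41.3 ± 14.7 CPM in wt, and FAR1, which arrests the cycle, 26.7 ± 2.94 CPM in cyc8 and 77.6 ± 10.1 CPM in wt. The markers of mating type moved in the same comparison: the 7 a-specific genes summed to 964 to 1287 CPM in cyc8 and 2188 to 2404 CPM in wt, the 10 haploid-specific genes to 339 to 362 CPM in cyc8 and 424 to 445 CPM in wt, and the 4 alpha-specific genes to 15.4 to 17.6 CPM in cyc8 and 23.9 to 27.5 CPM in wt. None of these markers was without counts, and their part in the fall of the pheromone genes was not tested.

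The FUS1 promoter is shown because it holds 2 copies of the Ste12 word TGAAACA, 187 and 160 bases before the coding start, marked by the capitals (chrIII:71353-71652, plus strand). The word stood in 43.8% of the promoters of the pheromone list (7 of 16), in 10.8% of those of lower genes and in 7.17% of all promoters. An Nrg1 word, GGACCCT, also lies in this window without capitals. That Nrg1 word stood in 2 of 16 pheromone promoters (12.5%) and in 2.38% of all promoters. In the other window, described below, it stood in 1 of 16 (6.25%) and in 1.93% of all.
FUS1: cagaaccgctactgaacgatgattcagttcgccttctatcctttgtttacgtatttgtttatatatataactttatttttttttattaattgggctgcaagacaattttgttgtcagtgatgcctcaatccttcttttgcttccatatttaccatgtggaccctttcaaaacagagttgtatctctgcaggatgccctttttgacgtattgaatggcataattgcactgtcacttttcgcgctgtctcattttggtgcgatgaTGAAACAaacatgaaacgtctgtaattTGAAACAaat

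Transposon messages were the other large loss, a theme seen only after the values. Of 91 rows for Ty gag and gag-pol genes 35 passed the filter, and 28 of these were lower, with a median of -2.16. Together the 91 rows summed to 69.8, 79.2 and 81.7 CPM in cyc8, against 609, 670 and 545 CPM in wt, 7.90-fold lower in cyc8. At least 58.8% of the words of every lower row occur elsewhere in the genome, so the rows cannot be told apart as single elements. Of 53 small nucleolar RNAs tested, 10 were lower and 1 higher. SNR43 had 22.9, 38.8 and 20.6 CPM in cyc8, against 150.4, 160.1 and 128 CPM in wt (log2 fold change -2.41 ± 0.21, adjusted p = 2.47e-06). All snoRNA rows took 4.35%, 4.53% and 4.08% of nuclear counts in cyc8, against 6.10%, 6.17% and 6.59% in wt. Libraries made after ribosomal depletion count these RNAs along with messages, and the part of RNA handling in their level was not tested.

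**Figure D3:**
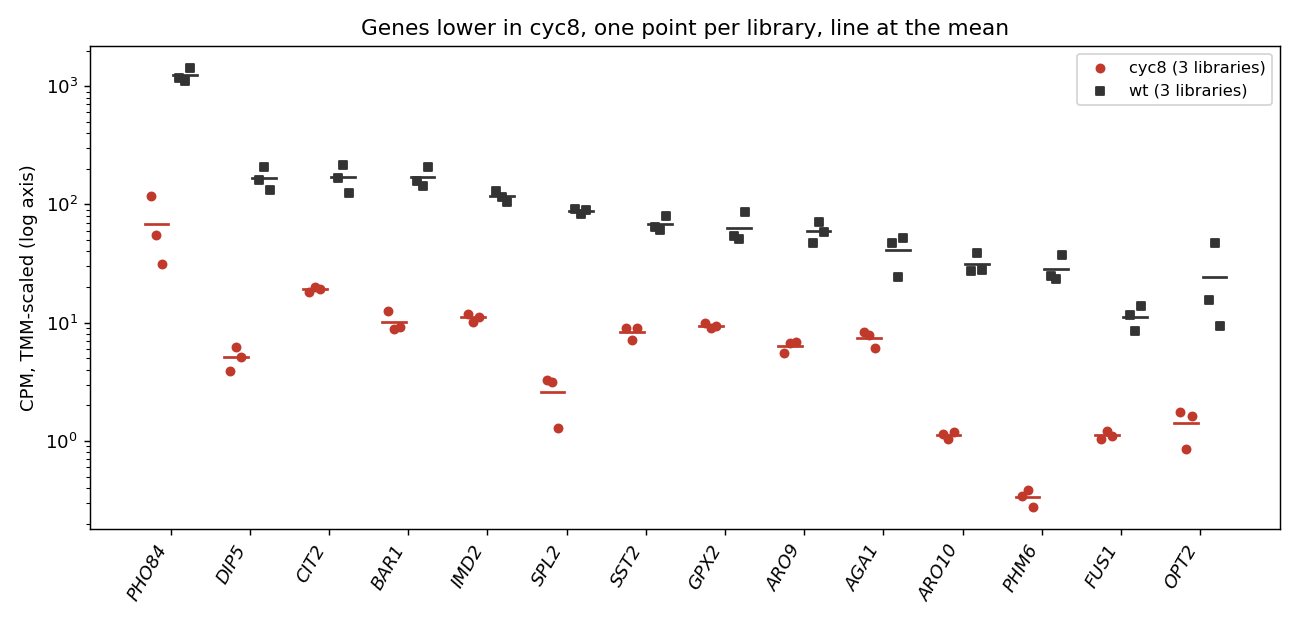
CPM of 14 lowered genes in each library on a log axis, cyc8 before wt, with a line at each group's mean. PHM6, at 0.276 to 0.386 CPM in cyc8 and 23.2 to 37.2 CPM in wt, shows the largest fall, and in every gene plotted the groups are separate.

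The plot of lowered genes by library brings together phosphate, aromatic, permease and pheromone genes. PHO84 stands out by the spread of its cyc8 libraries, which run between 31.3 and 118 CPM.

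Many changed genes belong to none of the lists: 365 of the higher and 143 of the lower genes. YNR071C, annotated in RefSeq as a protein of the aldose 1-epimerase superfamily (XIV, 770310 to 771856), had 710.4, 474 and 527 CPM in cyc8, against 4.09, 3.42 and 2.71 CPM in wt (log2 fold change 7.38 ± 0.18, adjusted p = 1.88e-12). YML131W, uncharacterised in the annotation (XIII, 10104 to 11562), had 1104, 1057 and 1130 CPM in cyc8, against 23.7, 28.1 and 26.6 CPM in wt (log2 fold change 5.39 ± 0.10, adjusted p = 9.80e-14). Both were abundant in cyc8 and weak in wt without overlap. HBN1, a putative nitroreductase, averaged 442 ± 54.3 CPM in cyc8 and 6.08 ± 0.625 CPM in wt, and AQY1, a water channel known from spores, 89.1 ± 9.04 CPM in cyc8 and 1.09 ± 0.448 CPM in wt. ATR2, a paralogue of the transporter gene ATR1, averaged 166 ± 13.9 CPM in cyc8 and 0.732 ± 0.288 CPM in wt. SET4, a SET domain protein, averaged 42.4 ± 5.61 CPM in cyc8 and 0.599 ± 0.132 CPM in wt, and PRR2, a protein kinase, 112 ± 9.93 CPM in cyc8 and 1.74 ± 0.757 CPM in wt. MIN7 (II, 624254 to 625418) averaged 687 ± 94.1 CPM in cyc8 and 17.2 ± 4.17 CPM in wt. VBA5, annotated as a basic amino acid transporter, had 74.7, 85.4 and 76.5 CPM in cyc8 and at most 0.0951 CPM in wt, with 72.9% of its words shared with near copies.

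Lists of the basic growth machinery held no called gene by edgeR, by DESeq2 or by limma-voom. Among 137 cytosolic ribosomal protein genes, an unadjusted p below 0.05 was reached by 30 upward and 16 downward, with summed levels of 198333 to 251892 CPM in cyc8 and 222274 to 223649 CPM in wt. Of 31 proteasome genes 0 were higher and 22 lower at that unadjusted level, with a median of -0.25, and of 10 histone genes 0 were higher and 8 lower, with a median of -0.48. Of 26 DNA replication genes 5 were higher and 9 lower at the unadjusted level, of 17 vacuolar ATPase genes 1 higher and 2 lower, and of 35 ribosome biogenesis genes 3 higher and 2 lower, where 1 gene was called higher without wt replicate 3. No member reached the 2-fold limit with an adjusted p below 0.05, which does not show that these genes did not differ.

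Raised genes were dense near chromosome ends and beside one another. Within 10 kb of an end 42.5% of 73 tested genes were higher, between 10 and 20 kb 46.6% of 116, between 20 and 30 kb 26.9% of 145, between 30 and 50 kb 15.5% of 316, between 50 and 100 kb 7.27% of 825, and farther in 8.64% of 4677. With the best-known lists left out these shares were 35%, 41.3%, 22.1%, 14.0%, 6.72% and 8.19%. Lower genes were spread more evenly, at 6.85% within 10 kb and 3.42% beyond 100 kb. Genes near the ends were weak in wt, with a median of 1.76 CPM within 10 kb and 28.3 CPM beyond 100 kb, and the outermost bin has a median of 30.2% shared words; the part of low level and of shared reads in the gradient was not tested.

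**Figure D4:**
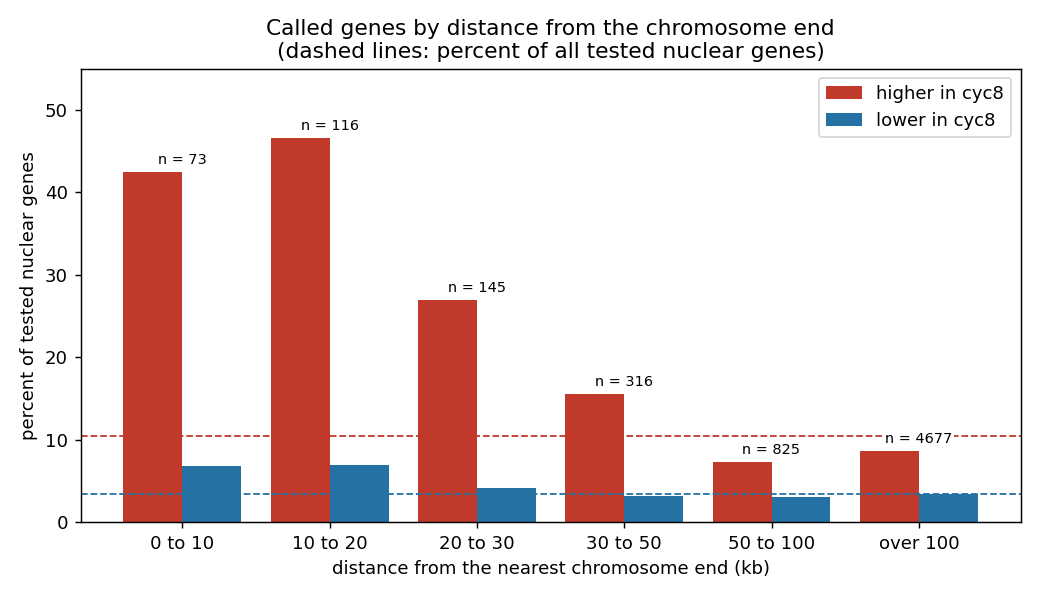
Percent of tested nuclear genes called higher (left of each pair) or lower in cyc8, by distance from the nearest chromosome end in kb, with the number tested above each bin and dashed lines at the shares over all genes. The share of higher genes is 46.6% at 10 to 20 kb and 8.64% beyond 100 kb.

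The plot by distance from the end shows that the shares of higher genes within 30 kb stand above the line for all genes. Of 566 higher protein-coding genes, 284 (50.2%) had a higher gene as a direct neighbour, against 17.6% of all tested protein-coding genes. Beyond 30 kb from the ends the values were 42.6% of higher genes and 15.6% of all. Some neighbouring gene models overlap, and the strand setting of the counting is not given. The part of reads shared between neighbours in these values was not tested. There were 13 runs of at least 4 higher genes in a row, and 11 of them lay within 50 kb of an end. One of the longest, with 6 genes, ran on chromosome VII from 1063653 to 1080797 through BIO2, IMA1, MAL13, MAL11, MAL12 and PAU12, so that a biotin gene and a PAU gene flank the maltose cluster. Another of 6, on chromosome XIII from 912530 to 923015, began with FET4 and ended with PAU19.

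Of the repressor words searched, those of Mig1 and Nrg1 were more frequent before higher genes than before all genes, while those of Rox1, Sko1 and Crt1 were no more frequent or too rare to compare outside the best-known lists. A Mig1 word stood before 29.7% of the 501 higher genes outside the best-known lists (149 promoters), before 41.5% of the 65 higher genes within them and before 7.23% of the 166 lower genes, against 911 of all 5704 promoters (15.97%). The stress element stood before 38.1% of higher genes outside the best-known lists (191 promoters) and 18.1% of lower genes, against 23.7% of all. The Nrg1 word stood before 4.59% and 10.8% of the higher genes outside and within the best-known lists, against 2.38% of all. A higher share was not particular to repressor words. Outside the best-known lists the Aft1 word stood before 10.8% of higher genes and 5.28% of all, and the Met31 and Met32 word before 13.6% and 9.55%. The Ste12 word went the other way, at 3.99% and 7.17%, and the Hap word stood at 43.9% and 45.4%. The part of base composition in these shares was not tested. The Rox1 word ATTGTTC stood before 6.99% of higher genes outside the best-known lists and 7.21% of all, and the Sko1 word TGACGTCA before 0 of 501 and before 9 of all 5704. The Crt1 word, searched by its exact letters, stood before 1 of 501 and before 5 of all 5704. The window was moved after results from another one were seen. In that other window, the 300 bases directly before the start of the gene model, Mig1 words stood before 27.1% of higher genes outside the best-known lists and 14.5% of all, and the stress element before 33.3% of higher genes outside the best-known lists and 21.9% of all. The Nrg1 word stood there before 4.79% of higher genes outside the best-known lists and 1.93% of all, but before 1 of the 65 higher best-known genes (1.54%), so the share for the best-known genes depends on the window. The Rox1 word stood there before 7.78% of higher genes outside the best-known lists and 7.47% of all. For the lists, the other window gave the stress element in 60% of general stress promoters, the Pho4 word in 66.7% of phosphate and 48.1% of sulfate and methionine promoters, and the Ste12 word in 50% of pheromone promoters. It gave the Hap word in 65.2% of complex III and IV promoters and the Met31 and Met32 word in 51.9% of sulfate and methionine promoters. The Upc2 word stood there in 26.1% of sterol synthesis and 7.69% of sterol uptake promoters. Mig1 words and AGGGG differ in the base before GGGG and so cannot share 1 GGGG run on the same strand.

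The same directions were then read in cyc8 snf2 against snf2, libraries outside the contrast of cyc8 and wt, although they entered the same fit and shared its filter, scaling and estimates of spread. These strains are of another background and lack the Snf2 remodeller, so a gene that differs may do so for either reason, which cannot be told apart. Of the 637 genes higher in cyc8, 381 (59.8%) were higher in cyc8 snf2 than in snf2, where 9.04% of all nuclear genes were, and 11 were lower. Of the 572 outside the best-known lists 324 (56.6%) were higher. The 381 are 68.5% of the 556 genes higher in the second pair. Of the 214 lower genes 68 (31.8%) were lower again, where 3.09% of all were, and they are 35.8% of the 190 lower in the second pair; 5 were higher. The median log2 fold change of the higher genes was 1.27 in the second pair and 1.89 in cyc8 against wt, and that of the lower genes -0.59 in the second pair and -1.57 in cyc8 against wt; since genes were chosen by the first pair, part of such a difference follows from the choice.

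**Figure D5:**
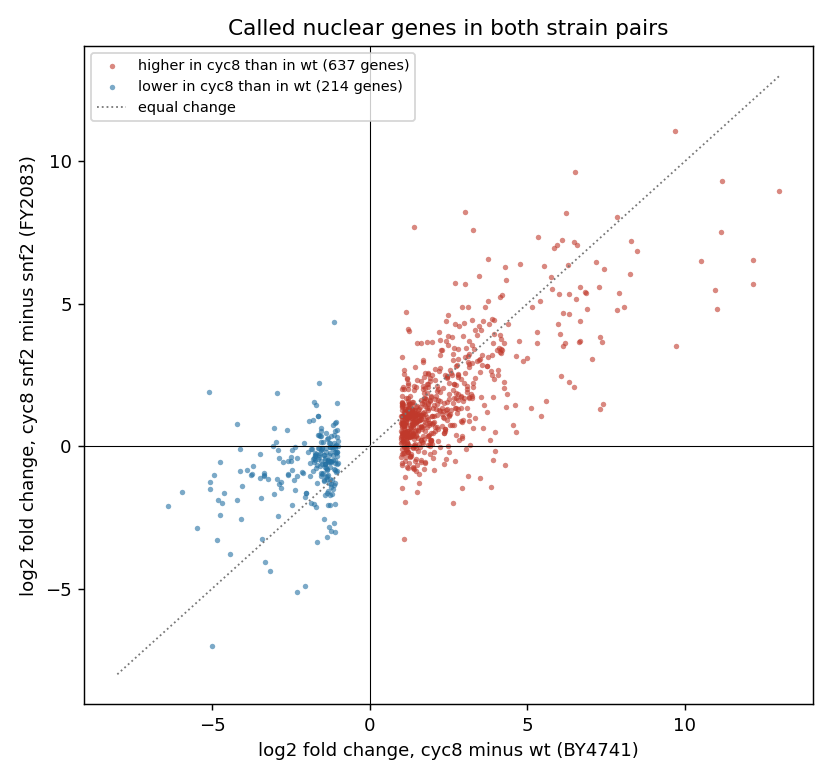
Log2 fold change of cyc8 snf2 minus snf2 (vertical axis) against that of cyc8 minus wt (horizontal axis) for the 637 higher and 214 lower nuclear genes. Of the higher genes 89.3% and of the lower genes 79.9% have the same sign in both pairs.

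The plot of both pairs shows that large changes outside the best-known lists were often shared. RCK1 had a log2 fold change of 6.05 in the second pair, SGA1 7.17, HSP12 8.19, YML131W 5.10 and DIP5 -7.00. Several phosphate genes did not follow: VTC3 had 0.15 there, VTC1 0.16 and PHO81 -0.26. The difference between the pairs was itself past the test for VTC3 (3.11, adjusted p = 3.4e-10). PHO84 and SPL2 were already low in snf2, at 1.11 and 0.463 CPM, so a further fall could hardly be seen in them. Iron mannoprotein genes did not follow either, with -0.17 for FIT3. Over the whole table the difference between the pairs was called in 8.89% of nuclear genes, higher in 4.18% and lower in 4.71%. Among the higher genes 196 were called with a smaller and 36 with a larger change in the second pair, and among the lower genes 101 were called with a higher and 8 with a lower value there.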

How the data were processed

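RNA of wt, cyc8, snf2 and cyc8 snf2 yeast was sequenced in paired-end, ribosome-depleted libraries. The submitters' processing notes name STAR, featureCounts, deepTools and the R64 genome, without versions. The deposited file holds the authors' raw counts per gene for 12 libraries, and the sources used here do not give the strand setting of the counting. Rows are the authors' gene models, of which 6441 of 7150 matched RefSeq; 709 did not. In the labels, nothing ties libraries of different strains to a shared culture or day.

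All values here were computed from those counts. Counts were fitted with edgeR 4.0.16 in R 4.3.3 (TMM scaling, filterByExpr, robust quasi-likelihood F test), with 1 mean per strain over all 12 libraries and Benjamini-Hochberg adjustment over all 6171 genes that passed. Rows that name ribosomal RNA (12) were left out. CPM are TMM-scaled, and errors are SD over libraries or SE of a log2 fold change. A gene was called at an adjusted p below 0.05 and a fold of at least 2. The floors (3 counts) cover counting error only, while SD and SE include differences between libraries. On simulated counts of 6171 genes, 100% of 100 genes changed by 1.5 and of 100 changed by 3 on the log2 scale were recovered. The changed genes were drawn only from those averaging above 2 CPM, and 1 unchanged gene was called. Recovery at lower levels, or of changes nearer the 2-fold limit, was not tested. Shared reads were judged by the share of a gene's 50-base words found elsewhere in R64.

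Genes named are members of the lists, the strain markers, and the 25 highest and 25 lowest called genes outside the best-known lists with a mean of at least 10 CPM and no overlap of libraries. The comparison, its lists and this rule were chosen with earlier results of these data known. Replicate numbers did not pair the libraries (correlations of same-numbered deviations of -0.0975, -0.0237 and -0.0772). Alternatives tried were other scalings, filters, thresholds and tools (DESeq2 1.42.0, limma-voom 3.58.1), a replicate block and leaving out each library.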

Additional observations from a re-analysis of the deposited data

Results flagged for a closer look

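The difference between strains labelled cyc8 and their partners was not the same in the 2 strain backgrounds, by the interaction term of the edgeR fit, for 547 of 6152 nuclear genes (8.89%). The 5 with the most negative and the 5 with the most positive difference among the genes given in lists were chosen after their values were seen, and the background strain changes along with the presence of SNF2. The difference (log2, second pair minus first) was -6.21 for PAU5, -5.29 for FIT2, -4.15 for DIT1, -4.14 for FIT3 and -3.99 for SUC2. On the other side it was 7.005 for SPL2, 6.28 for PTR2, 5.47 for QDR2, 5.18 for RSB1 and 4.97 for PHO84. SPL2 and PHO84 were low in both strains of the second pair, at 1.71 CPM in cyc8 snf2 and 0.463 CPM in snf2 for SPL2, and at 1.88 CPM in cyc8 snf2 and 1.11 CPM in snf2 for PHO84. PTR2, RSB1 and QDR2 were low in snf2 alone: PTR2 averaged 1017 CPM in cyc8 snf2 and 4.90 CPM in snf2, RSB1 237 CPM in cyc8 snf2 and 0.792 CPM in snf2, and QDR2 31.2 CPM in cyc8 snf2 and 1.53 CPM in snf2. FIT3 was high in both, at 667 CPM in cyc8 snf2 and 749.6 CPM in snf2.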

How the results depend on the processing

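Over all 6171 tested rows the main setting gave 640 higher and 215 lower genes in cyc8 against wt, of which 449 were called the same way in cyc8 snf2 against snf2. Only the fold threshold moved these counts by more than 1.5 times: at 1.5-fold there were 498 lower genes and 751 called the same way, and at 4-fold 294 higher, 70 lower and 189 called the same way. Upper-quartile scaling, which moved the median log2 fold change by -0.12, gave 566 higher and 263 lower, so that 68.3% of called genes were higher there and 74.9% in the main setting. DESeq2 gave 665 higher and 204 lower, limma-voom 651 and 214, and the libraries of the compared strains alone 636 and 191. Leaving out 1 library at a time gave 604 to 660 higher, 193 to 225 lower and 431 to 460 called the same way. The replicate numbers do not pair the libraries; with the replicate block the counts were 639, 211 and 446, and of the named genes FET3 lost its call (adjusted p = 0.0524).

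Of 147 genes named, 5 lost a call in at least 1 of 16 settings (FET3, TAT2, ENO2, CAT8 and QDR2), CCW12 gained one, and GSY1, not called, changed sign: its log2 fold change was 0.023 without wt replicate 1, 0.0425 without wt replicate 2 and -0.58 without wt replicate 3. Most of the losses followed from 1 library fewer; beyond that the cause was not tested. At these depths genes below about 1 CPM rest on few counts, and their fold changes are the least certain.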
